A study of Mus musculus with 2 samples.

Results

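Imprinted genes are transcribed mainly or only from the allele inherited from 1 parent. They lie in clusters in which a differentially methylated imprinting control region, set in the germ line, decides which allele is used, often through a long noncoding RNA or a boundary bound by CTCF. Many of their products set fetal and placental growth, with paternally expressed members such as Igf2 and Dlk1 tending to promote growth and maternally expressed members such as Cdkn1c, Phlda2 and Igf2r tending to restrain it. Imprints in cultured mouse embryonic stem cells are known to vary between lines and passages. The levels below are total transcript levels, because the arrays do not separate the alleles.

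The genes described are 43 imprinted mouse genes, chosen by name from the known imprinted clusters, although earlier results of these data were known. A probe set was taken where the platform annotation paired it with 1 of these symbols and no other gene. This gave 110 probe sets of 45037, for 41 of 18193 named genes. The other 2, H19 and Zrsr1, had no such probe set. The arrays compared E14 cells, an established mouse embryonic stem cell line, that carried a lentiviral short hairpin RNA (shRNA) against Mll2 with E14 cells that carried a control shRNA. Infection lasted 24 h and puromycin selection 5 days before total RNA was taken. All cells therefore carried a lentivirus and had been through selection, and the labels do not say that either culture was a clone. Each group is 1 array, so the differences below have no replicate check, were not tested, and describe these 2 arrays only.

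Mll2 is a methyltransferase of histone H3 lysine 4, and the name has been used for Kmt2d and for Kmt2b. Kmt2d had a signal of 335 on the Mll2 shRNA array and 736 on the control array, a log2 ratio of -1.14. Kmt2b had signals of 852 and 901, a log2 ratio of -0.08. All 12 markers of embryonic stem cells were measured on both arrays, with a summed signal of 98730 under the Mll2 shRNA and 107402 in the control. Dppa5a alone gave 25464 and 29661 of these. The median log2 ratio of the 12 was -0.29, but 5 were above 0. They ran from -0.90 for Lin28a to 0.59 for Klf4. Of 9 primitive endoderm markers 7 were measured, with summed signals of 4134 and 5539, most of which came from Sparc (3111 and 4624). Their median log2 ratio was 0.24, with 5 of 7 above 0, where 53.5% of all measured genes were. Gata4 and Pdgfra were under the floor defined below on both arrays. Sox17 and Sox7 were above it on the Mll2 shRNA array only, so they could only be above 0, and the median is the bound of Sox7. The part of such differences in cell state in the results below was not tested. Because these are bulk samples, fewer cells of a type and less RNA per cell cannot be told apart. The 2% trimmed mean of the signals was 500 on both arrays, and the mean log2 difference of 18 bacterial spike-in probe sets was -0.12.

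A floor was set at the median of all log2 values of both arrays, 6.02, which is a signal of 64.7. Values under it were raised to it. A gene counts as measured when at least 1 array exceeded the floor in 1 of its probe sets, and it is represented by its brightest probe set, by mean value. Of the 43 imprinted genes 32 were measured, 30 of them on both arrays. Ascl2 and Slc22a18 were above the floor on the control array only, so that their ratio is a lower bound in size and could only be negative. Another 9 genes lay under the floor on both arrays, in all of their 14 probe sets. These were Asb4, Dcn, Nap1l5, Nnat, Peg12, Rasgrf1, Snrpn, Usp29 and Zim1. The highest signals among them were 59.3 for Asb4 on the Mll2 shRNA array and 53.6 for Peg12 on the control array, and no difference was detectable for these genes. For Snrpn this covers only the probe set that names it alone. Of 6 probe sets that list Snrpn together with Snurf, encoded by the same transcript, 4 were above the floor on both arrays, and the brightest had signals of 2108 and 2190. All 4 had a log2 ratio below 0, from -0.36 to -0.05 for the brightest. The probe set that lists H19 together with Mir675, the microRNA processed from it, had signals of 43.1 and 23.7 and lay under the floor.

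Most imprinted genes, like most measured genes, were less than 1.5-fold apart between the arrays. Of the 32 measured, 26 were not 1.5-fold apart, with Slc22a18 among them only as a bound. Of all 11805 measured genes 10379 were not. Ratios are the Mll2 shRNA over the control shRNA on the log2 scale. At 2-fold or more, no imprinted gene was higher, against 1.47% of all 11805 measured genes. Phlda2 and Ascl2, 2 of 32 or 6.25%, were at least 2-fold lower, against 0.983% of all measured genes. At 1.5-fold or more, 4 genes were higher (Sgce, Plagl1, Ppp1r9a and Mkrn3), which is 12.5% against 7.4% of all measured genes, and 2 were lower, 6.25% against 4.68%. Ascl2 counts among these only as a bound, and it passed the floor only through the array where it was higher. The median log2 ratio was 0.09 over the imprinted genes and 0.03 over all measured genes, with 22 of the 32 above 0 (68.8%) against 53.5% of all. When the arrays were scaled on the spike-in controls instead, which shifts the median of all genes by 0.11, 7 imprinted genes were at least 1.5-fold higher (21.9%, against 11.7% of all measured genes) and 2 lower (6.25%, against 3.08%), and the median was 0.21. None of the 32 genes changed sign under median centring, quantile normalization, loess or spike-in scaling.

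**Figure D1:**
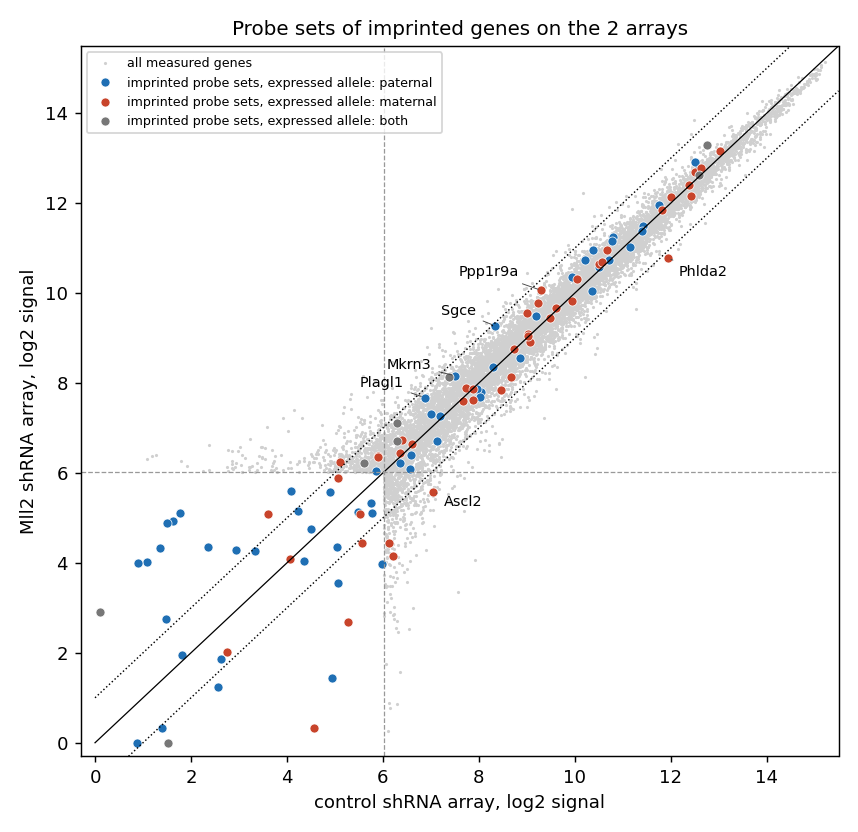
Log2 signal of the 110 probe sets of imprinted genes on the Mll2 shRNA array (vertical axis) against the control array (horizontal axis), coloured by the allele that is expressed, over all measured genes in grey. Dashed lines mark the floor of 6.02, the solid line equal signals and dotted lines 2-fold. Phlda2 lies below the lower dotted line with both arrays above the floor, and 37 probe sets lie under the floor on both arrays.

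In place of replicates, each gene was set against the 500 genes closest to it in level and above the floor on both arrays. The median absolute deviation of their ratios, times 1.4826, is called the spread at that level. It mixes noise with true differences and leaves out the variation between cultures. Of the 32 imprinted genes 18 lay within 1 spread of 0. Beyond 1 spread were 43.75% of them, against 34.7% of all measured genes. The 5 beyond 2 spreads, 15.6% against 8.50% of all measured genes, were Phlda2, Ascl2, Sgce, Ppp1r9a and Grb10. A second measure is the SD of the difference between the 2 brightest probe sets of a gene, which was 0.30 over 14 imprinted genes and 0.37 over 4713 genes. Of the 15 imprinted genes with several measured probe sets, 6 had only ratios above 0 (Gnas, Grb10, Impact, Inpp5f, Ndn and Ppp1r9a), 2 only below 0 (Ascl2 and Kcnq1ot1) and 7 had both signs. Both measured probe sets of Ascl2 were above the floor on the control array only, so they could only be below 0. Gnas, Inpp5f and Ppp1r9a each had 1 measured probe set above the floor on the Mll2 shRNA array only, which could only be above 0.

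**Figure D2:**
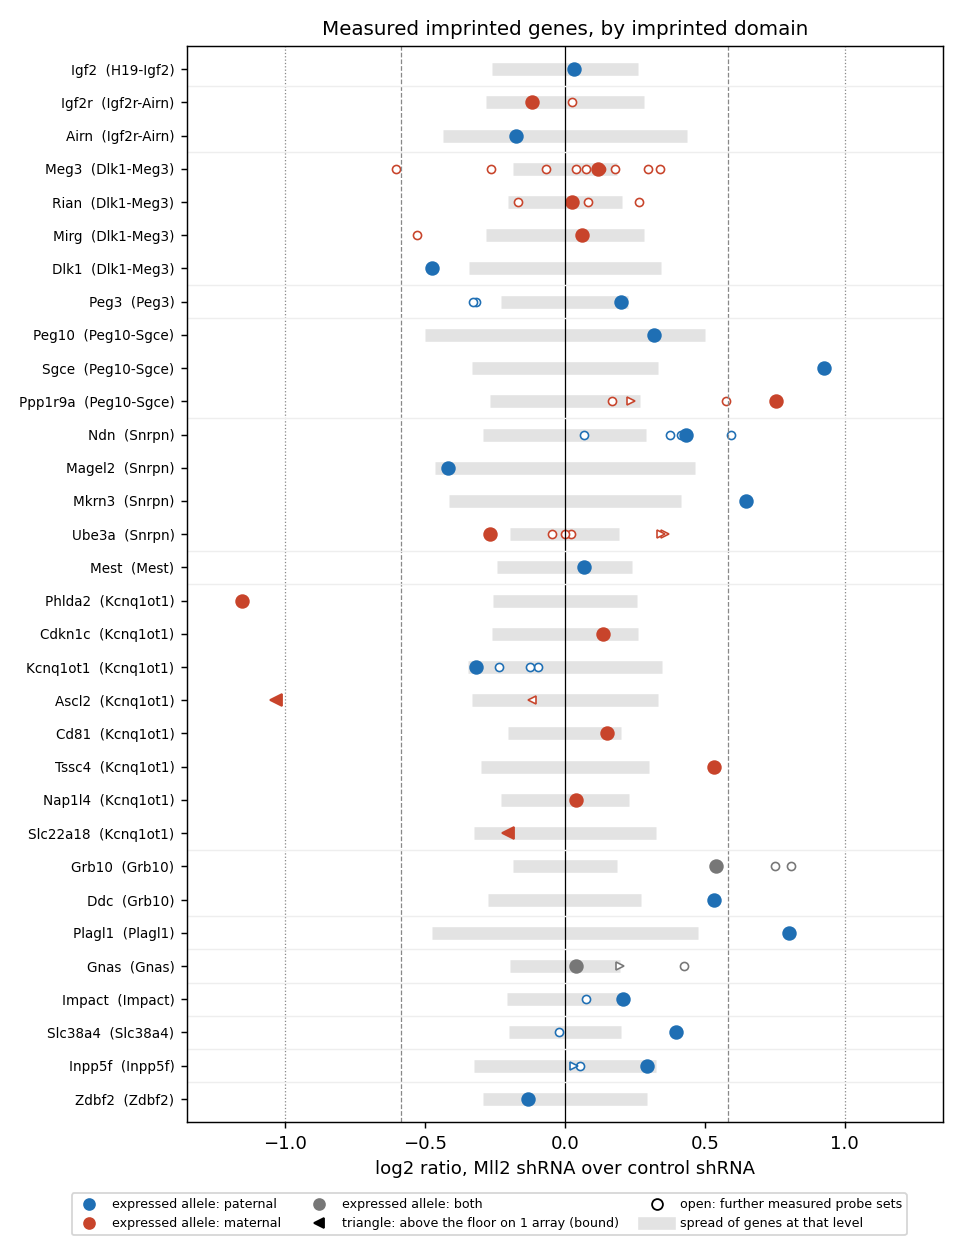
Log2 ratio (horizontal axis) of each of the 32 measured imprinted genes, grouped by imprinted domain. Filled points are the probe set used, open points the other measured probe sets, triangles are bounds, grey bars the spread at that level, and lines mark 1.5-fold (dashed) and 2-fold (dotted). Phlda2 at -1.15 and Ascl2 at -1.03 stand at the left and Sgce at 0.93 at the right.

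The Kcnq1ot1 domain of chromosome 7 held both genes that were at least 2-fold lower. Kcnq1ot1 is a long noncoding RNA transcribed from the paternal allele that silences its neighbours on that allele, so that the protein-coding genes around it are expressed from the maternal one. Phlda2, which restrains growth of the placenta, had a signal of 1761 under the Mll2 shRNA and 3920 in the control. It was 2.23-fold lower (log2 ratio -1.15), with a spread of 0.26 at its level, and 0 of these 500 neighbours in level had a ratio as low. It stayed between -1.16 and -1.04 in 10 alternatives, but several of these cannot change a bright gene with 1 probe set. It has 1 probe set, so no second one bears on it. Ascl2, a basic helix-loop-helix factor needed for the spongiotrophoblast of the placenta, had a signal of 47.8, under the floor, against 132 in the control, and was at least 2.05-fold lower (log2 ratio -1.03). In its second probe set the signals were 21.8 and 70.2, which leaves a bound of only -0.12. In the third both arrays lay under the floor. Ascl2 ranged from -1.47 to -0.12 over 9 alternatives, so the size of its difference depends on the floor and the probe set.

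Of the other 6 genes of the domain, 5 were less than 1.5-fold apart and Slc22a18 had only a bound. Cdkn1c, an inhibitor of cyclin-dependent kinases, had signals of 1663 and 1513 (log2 ratio 0.14). Cd81, a tetraspanin, was at 0.15, and Nap1l4, of the nucleosome assembly protein family, at 0.04, each within its spread. Tssc4 was at 0.53 with a spread of 0.30. Slc22a18, a member of a transporter family, had signals of 17.7, under the floor, and 74.5, and was lower by at least 1.15-fold. Kcnq1ot1 itself had signals of 374 and 466 in its brightest probe set, and the 4 measured probe sets lay between -0.32 and -0.10 with a mean of -0.19 ± 0.10 (SD over probe sets). All 4 were below 0, but the largest was still within the spread of 0.35. Of the imprinted genes between Ascl2 and Phlda2, all but Slc22a18, which has only a bound, thus differed less than they did. In chromosomal order, taken from the RefSeq assembly GRCm38.p6, 15 measured genes lay in or within 300 kb of the domain, 9 of them with a ratio above 0 and 6 below. Phlda2 lay between Slc22a18 and Nap1l4. Beyond Nap1l4 came Cars, a cysteinyl-tRNA synthetase gene, with signals of 777 and 474 (log2 ratio 0.71).

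Phlda2 and Ascl2 are both known from trophoblast, so markers of that cell type are given beside them. Of 9 trophoblast markers 6 were measured, with a median log2 ratio of 0.11, a lowest of -0.84 for Krt7 and a highest of 0.56 for Hand1, which was above the floor on the Mll2 shRNA array only. Their summed signal was 2090 under the Mll2 shRNA and 2298 in the control. Elf5 and Tpbpa were under the floor on both arrays. The part of trophoblast cells in the lower Phlda2 and Ascl2 signals was not tested.

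Sequences upstream of the start of the genes at least 1.5-fold apart are shown for those with 1 start in the RefSeq table, so that the base composition can be read beside the ratio, with Cd81 as a gene of the same domain that was within its spread. Each is the 250 bases before the start in assembly GRCm38.p6, written 5′ to 3′ on the strand of the gene, with each CpG, the dinucleotide that carries DNA methylation, in capitals. Phlda2 is at chr7:143502525-143502774 (minus strand), Ascl2 at chr7:142969265-142969514 (minus strand) and Cd81 at chr7:143052500-143052749 (plus strand).
Phlda2: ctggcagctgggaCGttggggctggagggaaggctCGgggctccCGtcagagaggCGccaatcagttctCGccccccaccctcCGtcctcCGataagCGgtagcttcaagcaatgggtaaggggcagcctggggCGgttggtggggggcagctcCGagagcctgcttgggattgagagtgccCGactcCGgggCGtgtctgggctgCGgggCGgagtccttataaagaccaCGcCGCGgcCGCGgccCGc
Ascl2: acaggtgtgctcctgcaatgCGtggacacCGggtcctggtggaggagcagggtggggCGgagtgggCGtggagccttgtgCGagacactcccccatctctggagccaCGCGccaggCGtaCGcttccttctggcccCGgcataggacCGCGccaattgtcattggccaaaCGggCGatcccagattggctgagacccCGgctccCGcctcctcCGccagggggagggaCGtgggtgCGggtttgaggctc
Cd81: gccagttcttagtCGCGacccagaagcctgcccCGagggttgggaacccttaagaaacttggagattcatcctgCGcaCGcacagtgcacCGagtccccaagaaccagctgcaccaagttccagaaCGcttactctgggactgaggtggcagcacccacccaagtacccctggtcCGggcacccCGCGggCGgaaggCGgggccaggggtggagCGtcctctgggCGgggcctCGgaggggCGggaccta
These windows hold 21, 19 and 16 CpGs. All 3 lie above the median of 6 over 32851 windows of all genes, and 16.3% of all windows held at least as many CpGs as that of Phlda2.

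The Peg10-Sgce domain of chromosome 6 held Sgce, the imprinted gene with the highest ratio. Sgce, which encodes a sarcoglycan, had a signal of 618 under the Mll2 shRNA and 325 in the control. It was 1.90-fold higher (log2 ratio 0.93), with a spread of 0.33 at its level, and 5 of its 500 neighbours in level were as high. Its second probe set was under the floor on both arrays. Peg10, a gene derived from a retrotransposon and needed for the placenta, starts next to Sgce and is read in the opposite direction. It had signals of 160 and 128 (log2 ratio 0.32), within a spread of 0.50. Ppp1r9a, which encodes the actin-binding neurabin, had signals of 1068 and 634 (log2 ratio 0.75). Its second probe set gave 760 and 510, or 0.57, and the third 0.17, and another, measured on the Mll2 shRNA array only, was higher by at least 0.24. The mean over the 3 measured on both arrays was 0.50 ± 0.30 (SD over probe sets), so the size of the difference depends on the probe set. Sgce and Peg10 are expressed from the paternal and Ppp1r9a from the maternal allele.

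The genes around this domain were mostly higher as well. Besides Sgce, Peg10 and Ppp1r9a, 5 measured genes lay in or within 300 kb of it. Of these, 4 had a ratio above 0, where 53.5% of all measured genes did. Casd1 had signals of 1630 and 1048 (log2 ratio 0.64), and Col1a2, a collagen gene, had 185 and 114 (log2 ratio 0.70). Pdk4, a kinase that inhibits pyruvate dehydrogenase, had signals of 344 and 84.0 (log2 ratio 2.03). Pon3, with signals of 124 and 33.5, was above the floor on the Mll2 shRNA array only, so it could only be higher, by at least 1.92-fold. Pon2 was at -0.06. Measured genes beside the members of other domains leaned either way. Above 0 were 4 of 4 around Nnat and 4 of 4 around Zrsr1. Below 0 were 4 of 5 around Igf2r and Airn, 4 of 5 around Zdbf2 and 3 of 3 around Plagl1. Fibroblasts express Col1a2, which is 1 of 10 fibroblast markers looked at. Of these 10 markers 6 were measured, with a median log2 ratio of -0.02 and summed signals of 1215 and 1164. Col1a1 was above the floor on the control array only, and Lum, Postn and Thy1 were under it on both. The part of fibroblasts in the ratios around Sgce was not tested. The domain window was drawn by position after the ratios of its members were known.

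In the Grb10 domain of chromosome 11 both members were higher by less than 1.5-fold in the probe set used. Grb10, an adaptor that dampens insulin and growth factor signalling, is expressed from the maternal allele in most tissues and from the paternal one in neurons. It had signals of 10125 and 6956 (log2 ratio 0.54), against a spread of 0.19 at this high level, and 8 of its 500 neighbours in level were as high. The other 2 probe sets gave 0.75, with signals of 280 and 166, and 0.81, with signals of 138 and 78.7. The mean was 0.70 ± 0.14 (SD over 3 probe sets), and all 3 carry the suffix _a_at, which marks probes shared by transcripts of 1 gene. Ddc, the DOPA decarboxylase gene of the same domain, had signals of 1712 and 1183 (log2 ratio 0.53, spread 0.27). Of the 4 other measured genes in or within 300 kb of the domain, 4 had a ratio above 0, where 53.5% of all measured genes did. They ran up to 0.63 for LOC102631979, and Ikzf1, at 0.09, was above the floor on the Mll2 shRNA array only and so could only be above 0.

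**Figure D3:**
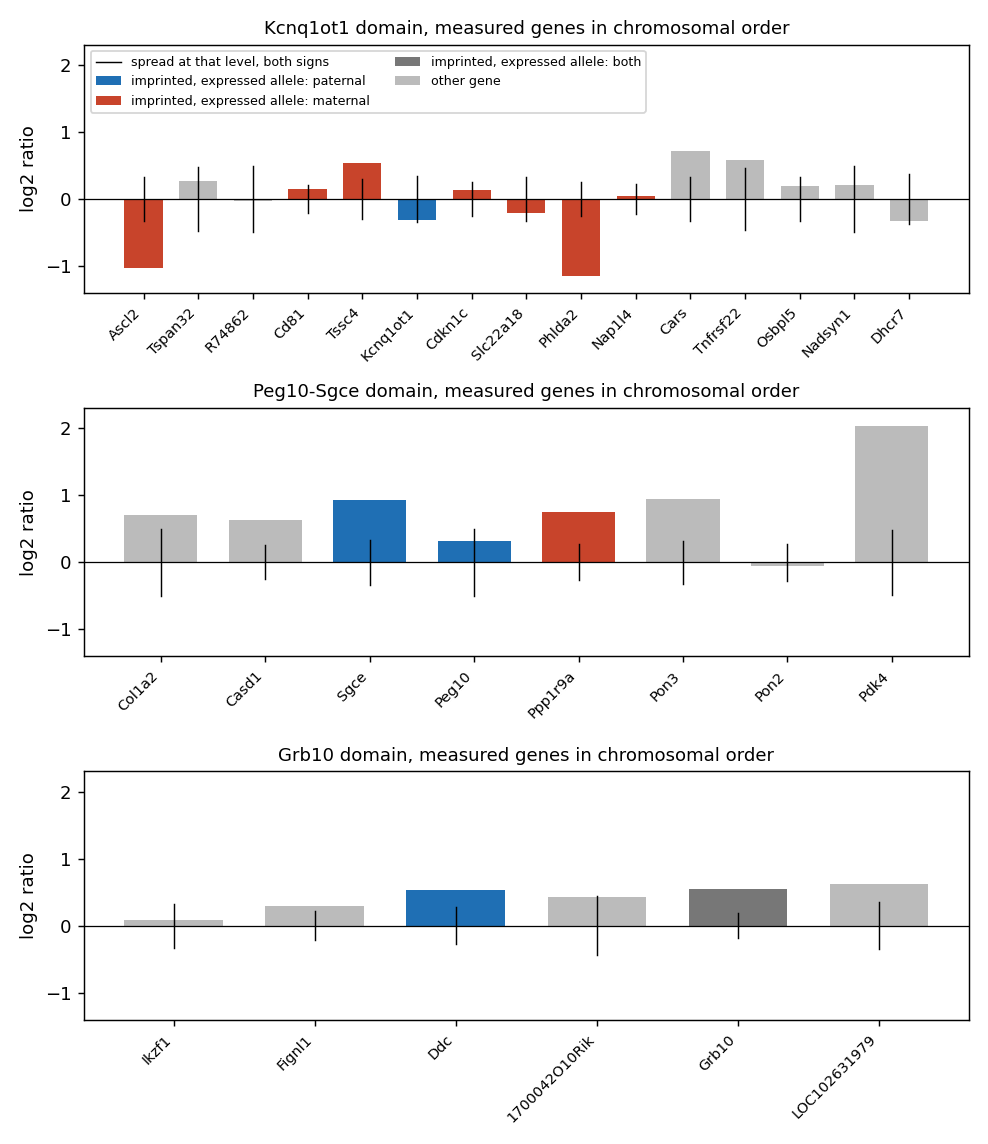
Log2 ratio (vertical axis) of all measured genes in chromosomal order in 3 imprinted domains and 300 kb on either side. Bars are coloured by the expressed allele for imprinted genes and grey for others, and thin lines show the spread at that level in both directions, while the bars of Ascl2, Slc22a18, Osbpl5, Pon3 and Ikzf1 are bounds. Ascl2 at -1.03 and Phlda2 at -1.15 stand apart from the genes between them, of which Tssc4 is at 0.53 and Slc22a18 has only a bound. Of the genes in and around the Peg10-Sgce domain 7 of 8 lie above 0, and of those in and around the Grb10 domain 6 of 6. Of all measured genes 53.5% lie above 0.

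Plagl1 and Mkrn3 were the remaining genes at least 1.5-fold higher. Plagl1, a zinc-finger factor that regulates other imprinted genes, had signals of 205 and 117 (log2 ratio 0.80). The spread at this low level was 0.48, and 30 of its 500 neighbours in level were as high. Its other 2 probe sets were under the floor, and the one used has the suffix _x_at, which marks probes that may also bind other transcripts. Mkrn3, a makorin ring-finger gene that restrains the onset of puberty, had signals of 286 and 183 (log2 ratio 0.65, spread 0.41), and was at 0.57, under the 1.5-fold line, after quantile normalization and at 0.20 with the floor at the 70th percentile. The upstream sequences of both are shown in the same form, Plagl1 at chr10:13090582-13090831 (plus strand) and Mkrn3 at chr7:62420154-62420403 (minus strand).
Plagl1: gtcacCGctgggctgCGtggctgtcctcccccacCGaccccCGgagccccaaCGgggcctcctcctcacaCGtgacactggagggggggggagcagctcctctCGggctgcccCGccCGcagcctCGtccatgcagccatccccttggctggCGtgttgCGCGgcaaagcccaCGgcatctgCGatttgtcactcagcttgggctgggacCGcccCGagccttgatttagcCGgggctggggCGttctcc
Mkrn3: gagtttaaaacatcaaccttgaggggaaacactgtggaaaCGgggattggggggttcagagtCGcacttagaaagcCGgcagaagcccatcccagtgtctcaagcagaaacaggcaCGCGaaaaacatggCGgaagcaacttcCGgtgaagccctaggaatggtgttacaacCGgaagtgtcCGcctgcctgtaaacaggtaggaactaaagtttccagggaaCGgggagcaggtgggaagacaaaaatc
They hold 19 and 10 CpGs. The hexamer TGCCGC, the core bound by the imprint-keeping factor ZFP57 when methylated, was searched on both strands and was found in 5 of 36 imprinted genes, taking for each the window with most CpGs (13.9%), and in 9.14% of 27025 genes. The Plagl1 window holds it 1 time and those of Phlda2, Ascl2, Cd81 and Mkrn3 do not. The same windows had a median of 10.5 CpGs in the 36 imprinted genes and 6 in all genes.

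Mkrn3 lies in the Snrpn domain of chromosome 7, the counterpart of the human Prader-Willi and Angelman region, where the measured members went in different directions. Ndn, which encodes necdin, had 5 measured probe sets, all above 0, from 0.07 to 0.59 with a mean of 0.38 ± 0.19 (SD over probe sets). In the brightest the signals were 2418 and 1791 (log2 ratio 0.43, spread 0.29). Magel2, of the same MAGE family, had signals of 104 and 139 (log2 ratio -0.42), within its spread of 0.47. Ube3a, a ubiquitin ligase that is expressed from the maternal allele in neurons, had signals of 4549 and 5475 in its brightest probe set (log2 ratio -0.27, spread 0.20). Its other probe sets did not follow: 3 were between -0.05 and 0.02, and 2 measured on the Mll2 shRNA array only were higher by at least 0.34 and 0.36. Snhg14, the host transcript that runs antisense to Ube3a and is not among the 43, was at -0.04.

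The Dlk1-Meg3 domain of chromosome 12, whose maternal noncoding RNAs are silenced in some embryonic stem cell lines, was well measured on both arrays. Meg3, its best-known noncoding RNA, was above the floor in all of 11 probe sets. The brightest had signals of 9150 and 8420 (log2 ratio 0.12), the mean was 0.03 ± 0.27 (SD over probe sets), and the range ran from -0.60 to 0.34. The 5 brightest were all above 0, between 0.12 and 0.30, so the negative ones were among the dimmer probe sets. Rian had signals of 5464 and 5365 (log2 ratio 0.03) and a range of -0.17 to 0.26 over 4 probe sets. Mirg had signals of 819 and 785 in its brighter probe set (log2 ratio 0.06) but 282 and 407 in the other (-0.53). These 3 are maternal transcripts of 1 region, and the brightest probe set of each lay within its spread. Dlk1, the paternally expressed transmembrane ligand of the domain, had signals of 68.0 and 94.6, just above the floor, and a log2 ratio of -0.48 with a spread of 0.34.

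These noncoding RNAs and some other imprinted genes host microRNAs, which the arrays did not measure. Mirg holds 19 of the mature microRNAs of the RefSeq table, Rian 6, Meg3 3 and the protein-coding gene Mest 2. The pair within Mirg that share a seed (bases 2 to 8, in capitals), 1 from Rian and 1 from Mest are shown as examples of what these transcripts carry.
mmu-miR-453: aGGUUGCCucauagugagcuugca
mmu-miR-496a-5p: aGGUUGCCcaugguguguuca
mmu-miR-370-3p: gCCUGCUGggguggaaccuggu
mmu-miR-335-5p: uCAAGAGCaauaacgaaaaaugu
The first pair differ after the seed, and no other 2 of the 36 mature microRNAs found within the imprinted genes share one.

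The Igf2 and Igf2r genes differed by less than their spread. Igf2, a fetal growth factor, had signals of 1710 and 1670 (log2 ratio 0.03), and Igf2r, the receptor that clears it, had 910 and 988 (log2 ratio -0.12) with 0.02 in its second probe set. Airn, the noncoding RNA that silences Igf2r on the paternal allele, had signals of 85.1 and 95.9 in the only 1 of 5 probe sets above the floor (log2 ratio -0.17, spread 0.44). Mest, of the alpha/beta hydrolase fold, was at 0.07. Gnas, the stimulatory G protein gene with transcripts from both alleles, was at 0.04 in its brightest probe set, with signals of 6306 and 6136, and at 0.42 in a dim one with signals of 105 and 78.3. Its 5 probe sets could not be assigned to its different transcripts here.

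Peg3, a zinc-finger gene expressed from the paternal allele, differed in sign between probe sets. The brightest had signals of 3961 and 3445 (log2 ratio 0.20), whereas the next 2 had 1056 and 1317 and 207 and 259, or -0.32 and -0.33. Averaged over the 3, Peg3 was at -0.15 ± 0.30 (SD over probe sets), so no direction can be given. Slc38a4, an amino acid transporter, was at 0.40 in its brighter probe set (signals of 7702 and 5845) and at -0.02 in the other (2668 and 2704). Impact, a regulator of the GCN2 kinase, was at 0.21, Inpp5f, an inositol phosphatase, at 0.29 and Zdbf2 at -0.13. The spreads at their levels were 0.21, 0.33 and 0.29.

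By the allele assigned to each gene, 17 of 24 paternally expressed genes were measured, with a median log2 ratio of 0.21 and 12 above 0 (70.6%). Of 17 maternally expressed genes 13 were measured, with a median of 0.04 and 8 above 0 (61.5%). Of all measured genes 53.5% were above 0. The maternally expressed Ascl2 and Slc22a18 were above the floor on the control array only, so they could only be below 0. Both genes at least 2-fold lower, Ascl2 among them, are assigned to the maternal allele, and 3 of the 4 at least 1.5-fold higher to the paternal one. Of the 32 measured genes 17 are assigned to the paternal and 13 to the maternal allele. The difference between the 2 groups was not tested, and genes of 1 domain are not independent of each other.

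Genes that set or keep imprints were examined as a list, which shares Zfp42 with the embryonic stem cell markers. Of 25 such genes 23 were measured, with a median log2 ratio of -0.08, which became 0.04 with spike-in scaling, and 15 were below 0. At least 1.5-fold lower were 4 (17.4% against 4.68% of all measured genes), and 1 was at least 1.5-fold higher (4.35% against 7.4%). Dnmt3a, a de novo DNA methyltransferase, had signals of 518 and 1360 (log2 ratio -1.39), although its 5 probe sets ran from -1.39 to 0.38. Dnmt3b, the other de novo enzyme of these cells, had signals of 6372 and 11983 (log2 ratio -0.91), and -1.70 in its second probe set. Dppa3, which protects imprints in the zygote, had signals of 195 and 431 (log2 ratio -1.14). Ehmt2, a methyltransferase of histone H3 lysine 9, had signals of 726 and 1219 (log2 ratio -0.75), and Kdm1b, a demethylase needed to set maternal imprints in oocytes, had 718 and 407 (log2 ratio 0.82).

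Other genes of the list lay on either side of their spread. Dnmt1, the maintenance DNA methyltransferase, had signals of 4026 and 3525 (log2 ratio 0.19), and Uhrf1, its partner at replication, 5439 and 6187 (log2 ratio -0.19). Trim28, the corepressor recruited by ZFP57, was at -0.08, Dnmt3l, a cofactor of the de novo enzymes, at -0.02, and Zfp57 at -0.44 with signals of 136 and 185. These 5 were within the spread at their level, which was 0.48 for Zfp57. Beyond their spread were Smchd1, a chromatin protein that keeps some imprinted clusters silent, at 0.57 (spread 0.22), Setdb1, a methyltransferase of histone H3 lysine 9 that works with TRIM28, at -0.30 (spread 0.26), and Ehmt1, the partner of Ehmt2, at -0.42 (spread 0.29). Also beyond it were Tet1 at 0.36 (spread 0.20), Arid4a at 0.42 (spread 0.34), Arid4b at 0.37 (spread 0.26) and Zfp42 at 0.21 (spread 0.18). The probe sets of Smchd1, Tet1, Arid4a and Arid4b differed in sign.

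**Figure D4:**
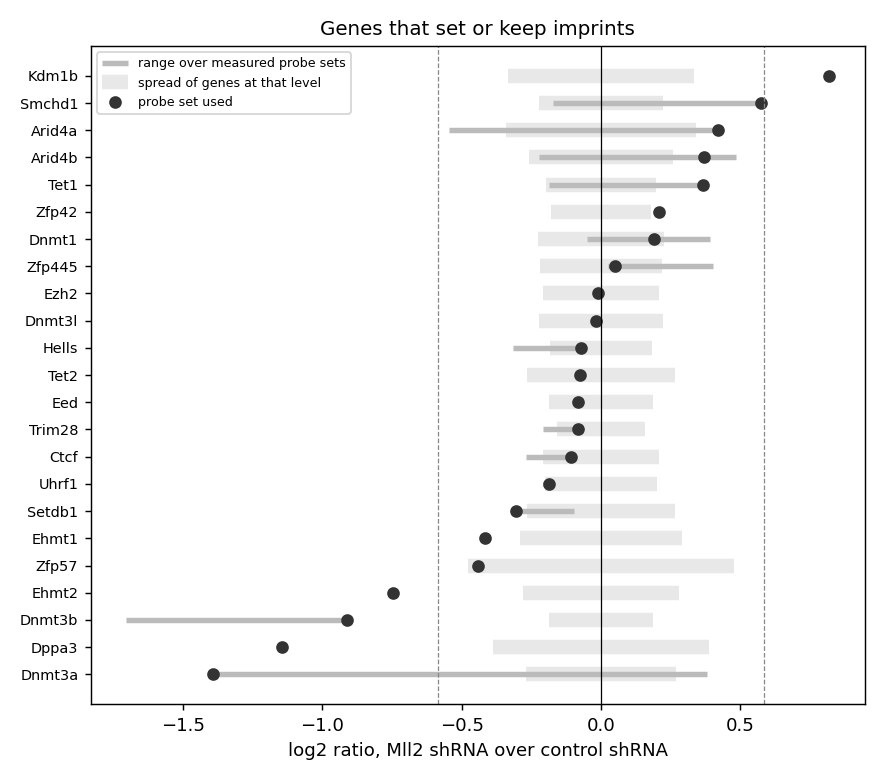
Log2 ratio (horizontal axis) of the 23 measured genes that set or keep imprints, sorted by ratio. Points are the probe set used, dark bars the range over measured probe sets, light bars the spread at that level, and dashed lines 1.5-fold. Dnmt3a, Dppa3, Dnmt3b and Ehmt2 lie beyond the left dashed line and Kdm1b beyond the right one.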

How the data were processed

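Per the labels' protocols, biotin-labelled cRNA from total RNA of 2 cultures was hybridised to Affymetrix arrays. The authors deposited log2 values of 45101 probe sets. MAS5, which scales each array alone and makes dim probe sets noisy, is named in the submitters' processing notes, and the version and any later step were not given in the sources used here. Detection calls were not used here, and the number of arrays limits the precision. The 64 control probe sets were left out. The annotation gave 1 symbol to 34945 probe sets, several to 932 and none to 9160, and 34741 symbols were updated through RefSeq. Probe sets of several genes named none.

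From these, floored log2 ratios, counts and medians were computed in Python 3.11.15 (numpy 2.4.6, pandas 2.3.3), and loess (span 0.4) came from limma 3.58.1 in R 4.3.3. The steps were tested on simulated data. Upstream windows and microRNAs came from RefSeq tables (GRCm38.p6), in which 36 of 43 genes had a window. The allele, domain and marker lists are textbook assignments. Signals are given for imprinted genes at least 1.5-fold apart or with probe sets of opposite sign, and the rest mostly by ratio. Also named by rule were Kmt2d and Kmt2b, the genes that set or keep imprints at least 1.5-fold apart with Dnmt1, Uhrf1, Zfp57, Trim28 and Dnmt3l, and other imprinted genes at least 2-fold apart. Neighbouring genes, markers and the remaining names were chosen after their values were seen. The genes, lists, floor and thresholds were chosen with earlier results of these data known. Alternatives were 4 scalings, 3 floors, adding the floor as a pseudocount, averaging a gene's probe sets, dropping suffixed probe sets, and a 3-fold threshold.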

Additional observations from a re-analysis of the deposited data

How the results depend on the processing

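No replicate could be left out and no paired analysis was possible because each group has 1 array, and depth was limited by the signal over the floor. Of 307 values of single imprinted genes under the alternatives, 293 moved by less than the spread at their level and 14 by more, and none at least 1.5-fold apart changed sign. Many of the 293 could not move. A changed floor leaves bright genes as they are, and averaging probe sets leaves a gene with 1 measured probe set as it is. Dropping suffixed probe sets likewise leaves genes represented by an unsuffixed one. Averaged over probe sets, Mirg was at -0.23, Peg3 at -0.15 and Ube3a at 0.07, each of the opposite sign to its brightest probe set. For Ube3a this mean takes in 2 bounds, 0.34 and 0.36, which could only be above 0. They come from probe sets that passed the floor under the Mll2 shRNA alone. The other 4 of Ube3a averaged -0.07, the same sign as its brightest, so its change of sign rests on these bounds. The medians of the imprinted, paternally expressed and maternally expressed genes and of the genes that set or keep imprints were recomputed. Those of the other lists were not. Moves were set against 1.2533 times the SD over members divided by the square root of their number. This yardstick takes genes as independent, which genes of 1 domain are not. Only the median of all imprinted genes moved by more, to 0.21 with spike-in scaling. The others moved much alike under spike-in scaling, from 0.21 to 0.32 (paternally expressed), 0.04 to 0.16 (maternally expressed) and -0.08 to 0.04 (genes that set or keep imprints). Which of them passed the yardstick thus depends on the size and SD of the list. That scaling left 1 gene of 32 at least 2-fold lower, Phlda2, where 82 of all 11811 measured genes were. It put 1 at least 2-fold higher, Sgce, where 258 of all were. It put 7 at least 1.5-fold higher (21.9% against 11.7% of all). Over all genes it moved the share of higher calls from 59.9% to 75.9%. With the floor at the 30th percentile 4 genes were at least 1.5-fold lower (10.3% against 9.32% of all genes). With it at the 70th percentile 1 of 25 was at least 2-fold lower, against 38 of all 8255. At 1.5-fold 1 was then lower (4% against 2.52%) and 2 were higher (8% against 4.35%). With no floor, which adds genes under it, 6 of 41 were at least 2-fold lower and 2 higher, against 1744 and 1753 of all 18193. At least 1.5-fold apart were 7 in each direction (17.1% each way, against 16.8% of all genes higher and 15.8% lower). At least 2-fold lower was 1 gene, Phlda2, with the pseudocount, with the mean over probe sets and without suffixed probe sets, and 0 at 3-fold. Over all genes these counts were 70 of 11805, 98 of 11805, 90 of 10223 and, at 3-fold, 18 of 11805. At least 1.5-fold higher were 2 with the pseudocount (6.25% against 4.95% of all genes) and 2 without suffixed probe sets (7.69% against 7.51%). At least 1.5-fold lower was 1 with the mean (3.125% against 4.15%) and 1 without suffixed probe sets (3.85% against 4.80%).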

Other observations

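A further 45 genes reported as imprinted in mouse, in a list apart from the 43, were looked at in the same way. Of these 27 were measured, with a median log2 ratio of 0.14, against 0.03 over all measured genes. Above 0 were 17 (63.0%), against 53.5% of all measured genes. Among the 17, Pon3, Ntm, Tfpi2, Osbpl5 and Qpct were above the floor on the Mll2 shRNA array only, so they could only be above 0. Ampd3, an AMP deaminase, was the only one at least 2-fold apart, with signals of 199 under the Mll2 shRNA and 88.6 in the control (2.24-fold higher, with a spread of 0.48 on the log2 scale at its low level). At least 1.5-fold higher were 6 genes (22.2%), against 7.4% of all measured genes, and 2 were at least 1.5-fold lower (7.41%), against 4.68%. Of the 6 higher ones, Pon3 (signals of 124 and 33.5) and Ntm (98.0 and 57.2) were above the floor on the Mll2 shRNA array only, so they could only be higher and their ratios are bounds.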
